A study of Mus musculus with 35 samples.

Results

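The 9 genes described here encode transcription factors that are known from memory and stem-like T cells, namely Tcf7, Lef1, Bcl6, Bach2, Foxo1, Satb1, Myb, Eomes and Id3. They were listed by name and matched through mouse Ensembl identifiers, and all 9 were found among the 48709 genes in each of 35 count tables. All 9 were also among the 13819 genes that passed the filter on low counts. The RNA came from CTLs (cytotoxic T lymphocytes) of OT-I mice, whose CD8+ T cells carry 1 transgenic receptor for an ovalbumin peptide. The CTLs had been primed with antibodies to CD3 and CD28 and expanded in IL-2, the main growth cytokine of activated T cells, so that every group, the 0 h group included, holds cells that had been activated and cultured. The study asked how an acid medium changes the response of such cells to IL-2. There were 7 groups of 5 biological replicates, numbered 1 to 5 in every group. One group was taken at 0 h and the others after 24 h of culture at pH 7.4, pH 7 or pH 6.6, each without added IL-2 or with 200 IU/mL murine IL-2. Hydrochloric acid set the pH, and dead cells were removed on Ficoll before RNA was extracted, so the values describe the cells that were left.

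As background, a T cell that is strongly driven by IL-2 acquires an effector program, while cells that keep the capacity to renew themselves hold on to a group of factors that are shared with naive cells. TCF-1 (the product of Tcf7) and LEF1 bind DNA through HMG boxes and maintain this self-renewing state, and FOXO1 is a forkhead factor that is driven out of the nucleus by PI3K and AKT signaling. BCL6 and BACH2 are repressors that restrain effector differentiation, whereas IL-2 acts through the factor STAT5, a known repressor of Bcl6. Eomes, a T-box factor, and Id3, an inhibitor of E proteins, are counted among memory factors too.

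Libraries held from 16721319 to 34033340 counts on genes (median 24730020). Levels are given as CPM (counts per 1000000 counts of the library, after TMM scaling), and comparisons between genes as CPM per kilobase of exon. Gene coordinates are those of GENCODE M21 on GRCm38. The genes that define the labelled cell type were present in every library, with Cd8a between 674 and 1596 CPM and Cd3e between 374 and 631 CPM. The other 5 of the 7 CD8+ T cell markers were detected in every library too, but Gzmb and Prf1, which encode the cytotoxic proteins granzyme B and perforin, ran from 36.7 to 9009.6 CPM and from 11.1 to 686 CPM. Both were lower at pH 6.6 than in pH 7.4 cultures with IL-2 (log2 -3.27 ± 0.18 and -2.01 ± 0.17). Of the 4 B cell markers, Ms4a1 and Pax5 were at 0 in all libraries, and the sum of the 4 was at most 0.381 CPM. The 5 myeloid markers summed to between 0.368 and 3.99 CPM and the 2 CD4+ T cell markers to at most 5.50 CPM. The 2 natural killer cell markers were Klrb1c and Ncr1, of which Ncr1 was at most 0.0694 CPM in any library. They summed to between 8.27 and 94.96 CPM, nearly all of it from Klrb1c, and stood at 83.4 to 94.96 CPM at 0 h. After 24 h they stood at 20.7 to 40.8, 28.6 to 38.6 and 8.27 to 12.1 CPM at pH 7.4, pH 7 and pH 6.6 without IL-2, and at 43.0 to 45.8, 44.8 to 53.5 and 19.4 to 33.2 CPM with IL-2. The part of these differences in the results was not tested. In bulk RNA of this kind, fewer cells that express a gene and less RNA of that gene per cell cannot be told apart.

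At pH 7.4, IL-2 lowered 7 of the 9 (Tcf7, Bcl6, Bach2, Lef1, Satb1, Myb and Foxo1) and raised Eomes and Id3, while among all genes tested 41.1% were called lower and 39.3% higher. For pH 6.6 against pH 7.4 with IL-2, Tcf7, Bcl6, Bach2, Lef1, Satb1, Foxo1 and Myb were higher and Eomes and Id3 were lower, against 35.4% of all genes called higher and 40.9% called lower. The median log2 fold change of the 9 was -1.60 for IL-2 at pH 7.4 and 1.05 for pH 6.6 with IL-2, beside -0.04 and -0.07 over all genes tested. These contrasts share the libraries at pH 7.4 with IL-2, so a value of one is not independent of the other. The effect of pH 6.6 differed between cultures with and without IL-2 for 9 of 9 factors in the interaction test, with 7 positive and 2 negative terms. Over all genes 34.3% of the interaction terms were called positive and 32.8% negative. Of the called interaction terms of all genes, 51.1% were positive, and this share was 64.4% with upper quartile scaling and 62.8% with library totals, 2 scalings that shift the median term by 0.26 and 0.23 on the log2 scale.

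**Figure D1:**
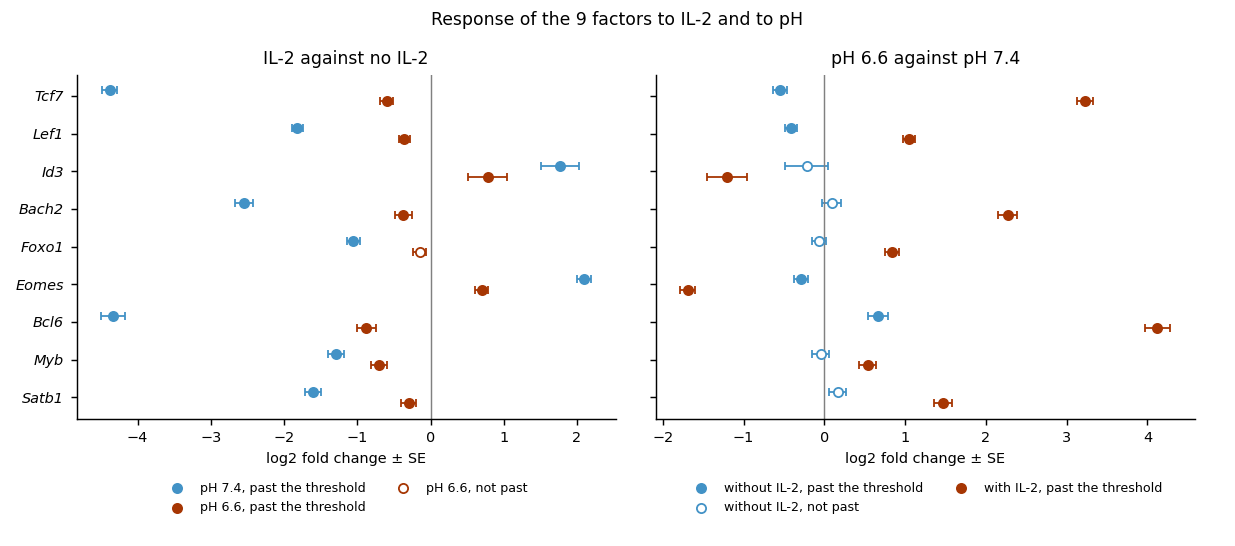
Log2 fold changes of the 9 factors with their standard errors (x axis, n = 5 libraries per group), for IL-2 against no IL-2 at pH 7.4 and pH 6.6 (left) and for pH 6.6 against pH 7.4 without and with IL-2 (right). Filled points passed an adjusted p of 0.05. At pH 7.4 the responses to IL-2 run from -4.38 for Tcf7 to 2.10 for Eomes, and at pH 6.6 every one of the 9 points lies nearer to 0.

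Tcf7 and Bcl6 had the largest responses to IL-2 at pH 7.4. Tcf7 (chr11:52252371-52283014, minus strand) was at 857, 932, 1066, 655 and 823 CPM in replicates 1 to 5 at pH 7.4 without IL-2, and at 50.4, 43.8, 53.5, 32.2 and 29.9 CPM with IL-2. The groups did not overlap, and Tcf7 was 20.8-fold lower with IL-2 (log2 fold change -4.38 ± 0.10 SE, adjusted p = 2.17e-26). At pH 6.6 it stood at 606, 624, 711, 453 and 560 CPM without IL-2, and at 356, 481, 529, 275 and 332 CPM with IL-2. Here the groups overlapped, since replicates 2 and 3 with IL-2 lay above replicate 4 without it, and the fall was 1.52-fold (log2 -0.60 ± 0.09, adjusted p = 4.33e-06). Among cultures with IL-2, Tcf7 was 9.37-fold higher at pH 6.6 than in those at pH 7.4 (log2 3.23 ± 0.10, adjusted p = 6.19e-23), in 5 of 5 replicates. The interaction term was 3.78 ± 0.13 (adjusted p = 3.06e-21). Per kilobase, Tcf7 was at the 73.6th percentile of the genes tested at pH 7.4 with IL-2 and at the 98.4th at pH 6.6 with IL-2.

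Lef1 (chr3:131110471-131224356, plus strand), the other HMG-box factor, moved in the same directions over a smaller range. It was at 198, 227, 257, 197 and 222 CPM at pH 7.4 without IL-2 and at 66.7, 60.5, 62.5, 63.1 and 58.1 CPM with IL-2. At pH 6.6 with IL-2 it was at 140.3, 139, 129, 108 and 129 CPM. None of these 3 groups overlapped another. IL-2 lowered Lef1 3.53-fold at pH 7.4 (log2 -1.82 ± 0.07, adjusted p = 8.12e-21) and 1.28-fold at pH 6.6 (log2 -0.36 ± 0.07, adjusted p = 0.000373), and the interaction term was 1.46 ± 0.10. Gm43352, a gene on the opposite strand, overlaps 13.7% of the Lef1 exon bases, and the strand setting of the counting is not given in the sources used here, so reads of the pair may not be separated.

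Bcl6 (chr16:23965052-23988852, minus strand) had the lowest level per kilobase of the 9 at pH 7.4 with IL-2, and the largest rise when such cultures were acid. It was at 3.61, 3.16, 2.997, 2.40 and 1.99 CPM at pH 7.4 with IL-2 (44 to 91 counts), and at 41.4, 60.8, 61.1, 39.5 and 43.7 CPM at pH 6.6 with IL-2. The lowest library of the second group was above the highest of the first by a wide margin, and the fold was 17.4 (log2 4.12 ± 0.16, adjusted p = 9.52e-21). Without IL-2, Bcl6 was at 62.1, 57.1, 56.3, 59.2 and 51.7 CPM at pH 7.4 and at 93.3, 98.7, 98.2, 80.0 and 83.5 CPM at pH 6.6. Again the groups did not overlap, and Bcl6 was the only one of the 9 factors called higher at pH 6.6 in the absence of IL-2 (1.58-fold, log2 0.66 ± 0.13, adjusted p = 3.18e-05). IL-2 thus lowered Bcl6 20.2-fold at pH 7.4 (log2 -4.34 ± 0.16, adjusted p = 5.49e-22) and 1.84-fold at pH 6.6 (log2 -0.88 ± 0.13, adjusted p = 3.92e-06), with an interaction term of 3.46 ± 0.20.

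Bach2 (chr4:32238804-32586108, plus strand) followed Bcl6 with smaller changes. At pH 7.4 it was at 89.1, 117, 137, 108 and 119.6 CPM without IL-2 and at 15.1, 21.003, 21.8, 19.9 and 19.6 CPM with IL-2, a fall of 5.87-fold (log2 -2.55 ± 0.12, adjusted p = 5.56e-19). At pH 6.6 with IL-2 it was at 89.0, 111, 109, 75.2 and 86.0 CPM, which overlaps the group at pH 7.4 without IL-2 and lies wholly above that at pH 7.4 with IL-2. The rise over pH 7.4 with IL-2 was 4.82-fold (log2 2.27 ± 0.12, adjusted p = 2.31e-17) and the interaction term was 2.18 ± 0.17. At pH 6.6 the difference made by IL-2 was 1.29-fold (log2 -0.37 ± 0.11, adjusted p = 0.0158). That call was lost in 3 of 13 alternatives, namely without the replicate block, with library totals and without replicate 5 (adjusted p from 0.058 to 0.065). The antisense gene Bach2os overlaps 5.4% of the Bach2 exon bases. Opposite-strand genes also overlap 7.78% of the exon bases of Foxo1 (Gm20402), 6.26% of those of Myb (Gm26577) and 2.84% of those of Eomes (Gm33460), with the same limit as for Lef1.

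Because these genes moved with IL-2, whose signal reaches DNA through STAT5, their promoter windows were searched for short motifs on both strands. The windows are those of RefSeq on GRCm38.p6, from 250 bases before to 50 after a start, and all 9 genes matched, with 18 windows. The STAT motif TTCNNNGAA occurred in 3 of the 18 windows, 2 of Bcl6 and 1 of Bach2, while 8.3% of all 32851 windows hold it. One of the 2 Bcl6 windows held it 3 times, and 11 of all windows (0.0335%) hold it 3 or more times. The 250 bases before both Bcl6 starts and the Bach2 start are shown 5′ to 3′ because they hold these matches, with the motif in capitals. The first Bcl6 window ends at the annotated start of the gene (chr16:23988853-23989102, minus strand), the second ends inside the gene, between exons (chr16:23981284-23981533, minus strand), and the Bach2 window (chr4:32417185-32417434, plus strand) precedes an internal start.
Bcl6 start 1: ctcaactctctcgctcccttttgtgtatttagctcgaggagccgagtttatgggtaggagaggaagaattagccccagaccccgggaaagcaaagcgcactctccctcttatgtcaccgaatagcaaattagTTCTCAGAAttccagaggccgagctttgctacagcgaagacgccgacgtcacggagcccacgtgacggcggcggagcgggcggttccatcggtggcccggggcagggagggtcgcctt
Bcl6 start 2: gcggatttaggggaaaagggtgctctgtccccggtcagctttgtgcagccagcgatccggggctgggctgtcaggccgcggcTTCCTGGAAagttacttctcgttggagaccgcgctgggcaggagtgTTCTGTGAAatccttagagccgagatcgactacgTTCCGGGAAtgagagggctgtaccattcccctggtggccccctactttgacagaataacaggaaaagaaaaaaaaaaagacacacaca
Bach2: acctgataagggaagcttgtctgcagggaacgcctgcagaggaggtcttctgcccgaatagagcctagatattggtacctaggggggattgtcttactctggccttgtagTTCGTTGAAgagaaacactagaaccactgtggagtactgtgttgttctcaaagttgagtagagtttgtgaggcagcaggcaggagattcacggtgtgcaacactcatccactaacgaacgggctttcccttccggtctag
The matches began 118 bases before the first Bcl6 start, 168, 122 and 88 bases before the second, and 140 bases before the Bach2 start. The forkhead motif TGTTTAC, which 3.65% of all windows hold, occurred in 2 of the 18, 1 each of Tcf7 and Myb, and is shown in capitals in 30 bases around each match (chr11:52282576-52282605 and chr10:21160935-21160964, both minus strand), with the Tcf7 match on the other strand of the window.
Tcf7: cctttataggaGTAAACAgacccccgccat
Myb: gtttgatggcatcTGTTTACagagttacac
The TCF/LEF motif CTTTGAT (in 3.73% of all windows) and the CRE motif TGACGTCA (in 1.79%) were in no window of the 9, and the E-box CACGTG (in 7.15%) was in 1 window each of Lef1 and Bcl6. These are matches of letters, and binding was not measured.

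Foxo1 (chr3:52268336-52353221, plus strand) had the smallest response to IL-2 among the 7 genes that fell. It was at 212, 223, 255, 212 and 223 CPM at pH 7.4 without IL-2, and at 120.3, 113, 114, 97.6 and 97.3 CPM with IL-2. The groups did not overlap (2.07-fold lower, log2 -1.05 ± 0.09, adjusted p = 1.49e-12). At pH 6.6 with IL-2, Foxo1 was at 193, 226, 219, 163 and 175 CPM, 1.79-fold above pH 7.4 with IL-2 (log2 0.84 ± 0.09, adjusted p = 3.5e-10). Within pH 6.6 it was the only factor whose difference between cultures with and without IL-2 missed the threshold, at -0.15 on the log2 scale with a 95% interval from -0.33 to 0.03. The interaction term was 0.91 ± 0.13 (adjusted p = 1.42e-07).

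Satb1 (chr17:51736187-51833290, minus strand), a chromatin organizer that shapes T cell gene programs, was at 406, 388, 506, 368 and 408 CPM at pH 7.4 without IL-2 and at 157, 127, 157, 110.1 and 134 CPM with IL-2. At pH 6.6 with IL-2 it was at 397, 379.6, 453, 312 and 355 CPM, which overlaps the group at pH 7.4 without IL-2. It was 3.04-fold lower with IL-2 at pH 7.4 (log2 -1.60 ± 0.11) and 2.77-fold higher at pH 6.6 than in pH 7.4 cultures with IL-2 (log2 1.47 ± 0.11, adjusted p = 6.53e-14). The remaining difference at pH 6.6, -0.30 ± 0.11 (adjusted p = 0.0379), missed the threshold in 7 of 13 alternatives (adjusted p from 0.0503 to 0.167), among them the fit without the replicate block and those without replicates 3, 4 or 5.

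Myb (chr10:21124935-21160984, minus strand), a regulator of progenitor cells that is also known from stem-like T cells, gave the smallest rise. It was at 63.4, 51.1, 51.5, 50.1 and 46.5 CPM at pH 7.4 with IL-2 and at 87.6, 91.4, 89.9, 55.6 and 59.7 CPM at pH 6.6 with IL-2. Replicates 4 and 5 of the acid group lay below replicate 1 at pH 7.4, so that the groups overlapped, although the acid library was higher in 5 of 5 replicates (1.45-fold, log2 0.54 ± 0.11, adjusted p = 3.4e-05). Without IL-2, Myb was at 146, 132, 138, 110.1 and 115 CPM at pH 7.4 and at 164, 130.5, 129.7, 98.2 and 104 CPM at pH 6.6, and these groups overlapped as well. IL-2 lowered Myb 2.44-fold at pH 7.4 (log2 -1.29 ± 0.11) and 1.63-fold at pH 6.6 (log2 -0.70 ± 0.11, adjusted p = 5.96e-06), with no overlap in either case. Its interaction term, 0.58 ± 0.15 (adjusted p = 0.00095), was the smallest of the 9 in size.

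Eomes (chr9:118478212-118486132, plus strand) rose with IL-2. It was at 157, 144, 139, 141 and 136 CPM at pH 7.4 without IL-2 and at 641, 623, 662, 552 and 590.4 CPM with IL-2. The groups were far apart, with a 4.28-fold rise (log2 2.10 ± 0.09, adjusted p = 5.64e-20). At pH 6.6 it was at 124, 119.8, 116, 115 and 111 CPM without IL-2 and at 224, 161, 167, 201 and 199.5 CPM with IL-2, so that IL-2 still raised it, but 1.62-fold (log2 0.70 ± 0.09, adjusted p = 4.41e-07). Eomes was 3.23-fold lower at pH 6.6 than in pH 7.4 cultures with IL-2 (log2 -1.69 ± 0.09, adjusted p = 2.64e-17), and the interaction term was -1.40 ± 0.13. It had the highest level per kilobase of the 9 at pH 7.4 with IL-2, 148 CPM per kilobase (98.2th percentile of genes tested), where Tcf7 was at 15.99 CPM per kilobase. At pH 6.6 with IL-2 this order was turned, with Tcf7 at 150.3 and Eomes at 45.8 CPM per kilobase.

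Id3 (chr4:136143497-136145755, plus strand) was the least expressed of the 9, per kilobase, in the cultures without IL-2. It was at 16.7, 5.62, 5.80, 4.63 and 5.99 CPM at pH 7.4 without IL-2 and at 16.8, 21.9, 23.5, 27.1 and 35.4 CPM with IL-2. Replicate 1 was the highest library of its group without IL-2 and the lowest with IL-2, and it brought these groups to within 0.1 CPM of each other. The rise with IL-2 was 3.40-fold (log2 1.77 ± 0.26, adjusted p = 3.62e-07). At pH 6.6 with IL-2, Id3 was at 12.7, 7.36, 6.42, 14.3 and 14.7 CPM, 2.30-fold lower than at pH 7.4 with IL-2 (log2 -1.20 ± 0.25, adjusted p = 8.63e-05). Its interaction term, -0.99 ± 0.37 (adjusted p = 0.0196), held in 4 of 5 replicates. That call was lost in 7 alternatives (adjusted p from 0.0583 to 0.144), among them upper quartile scaling, library totals and the fits without replicate 2, 3 or 5, and the term was -1.40 without replicate 1 (adjusted p = 0.000171).

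**Figure D2:**
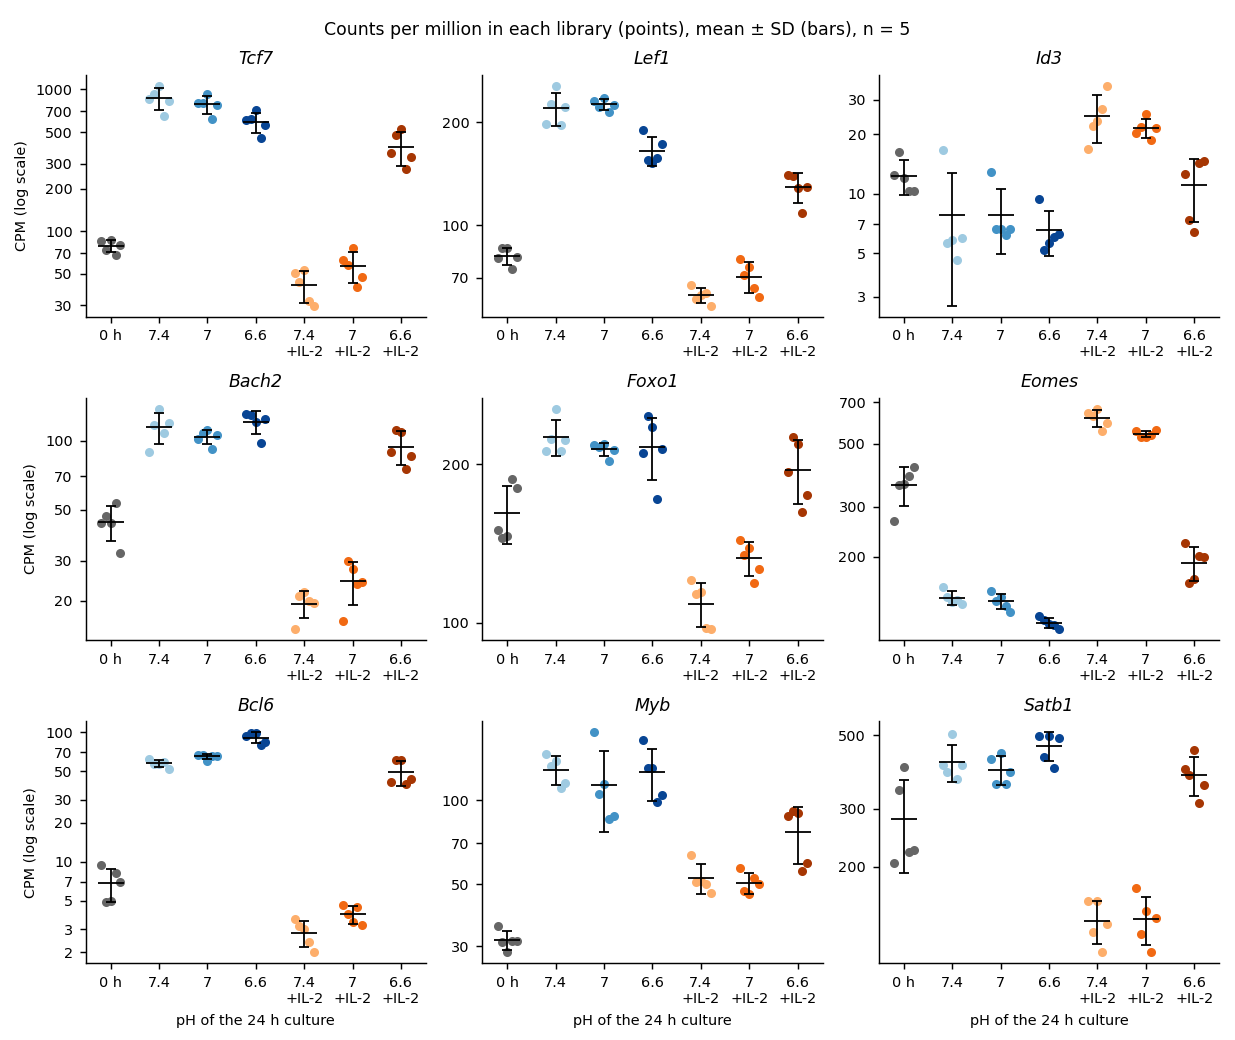
Level of each factor in CPM (y axis, log scale, different range per gene) in the 7 groups (x axis), with 1 point per library and bars for the mean and SD of 5 libraries. For Tcf7, Lef1, Bcl6, Bach2, Foxo1, Myb and Satb1 the libraries at pH 6.6 with IL-2 stand between, or overlap, those without IL-2 and those at pH 7.4 with IL-2, whereas Eomes and Id3 have their highest mean at pH 7.4 with IL-2.

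A milder acidification to pH 7 with IL-2 raised 2 of the 9 factors, where 9.15% of all genes tested were called higher and 9.83% lower. Tcf7 rose 1.36-fold (log2 0.45 ± 0.09, adjusted p = 0.000792), from a mean of 42.0 ± 10.6 to 57.3 ± 14.03 CPM (SD, n = 5), and Foxo1 rose 1.22-fold (log2 0.29 ± 0.09, adjusted p = 0.0213), from 109 ± 10.5 to 133 ± 9.78 CPM. Both were higher at pH 7 in 5 of 5 replicates, while the groups overlapped. The call for Tcf7 needed the replicate block (adjusted p = 0.092 without it), and that for Foxo1 was lost without replicate 2, 3 or 5 (adjusted p from 0.0566 to 0.0775). Among the other 7 factors the log2 differences were between -0.21 for Id3 and 0.47 for Bcl6, and the interval for Bcl6 ran from 0.12 to 0.82 (adjusted p = 0.0548). Lef1, Bach2 and Bcl6 were past the threshold, and higher, with upper quartile scaling or library totals, for 5 factors in all. Of the calls over all genes at pH 7 with IL-2, 48.2% were higher, against 63.6% with upper quartile scaling and 65.7% with library totals. Bcl6 was at a mean of 2.83 CPM at pH 7.4, 3.92 CPM at pH 7 and 49.3 CPM at pH 6.6, so most of its rise lay between pH 7 and pH 6.6.

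**Figure D3:**
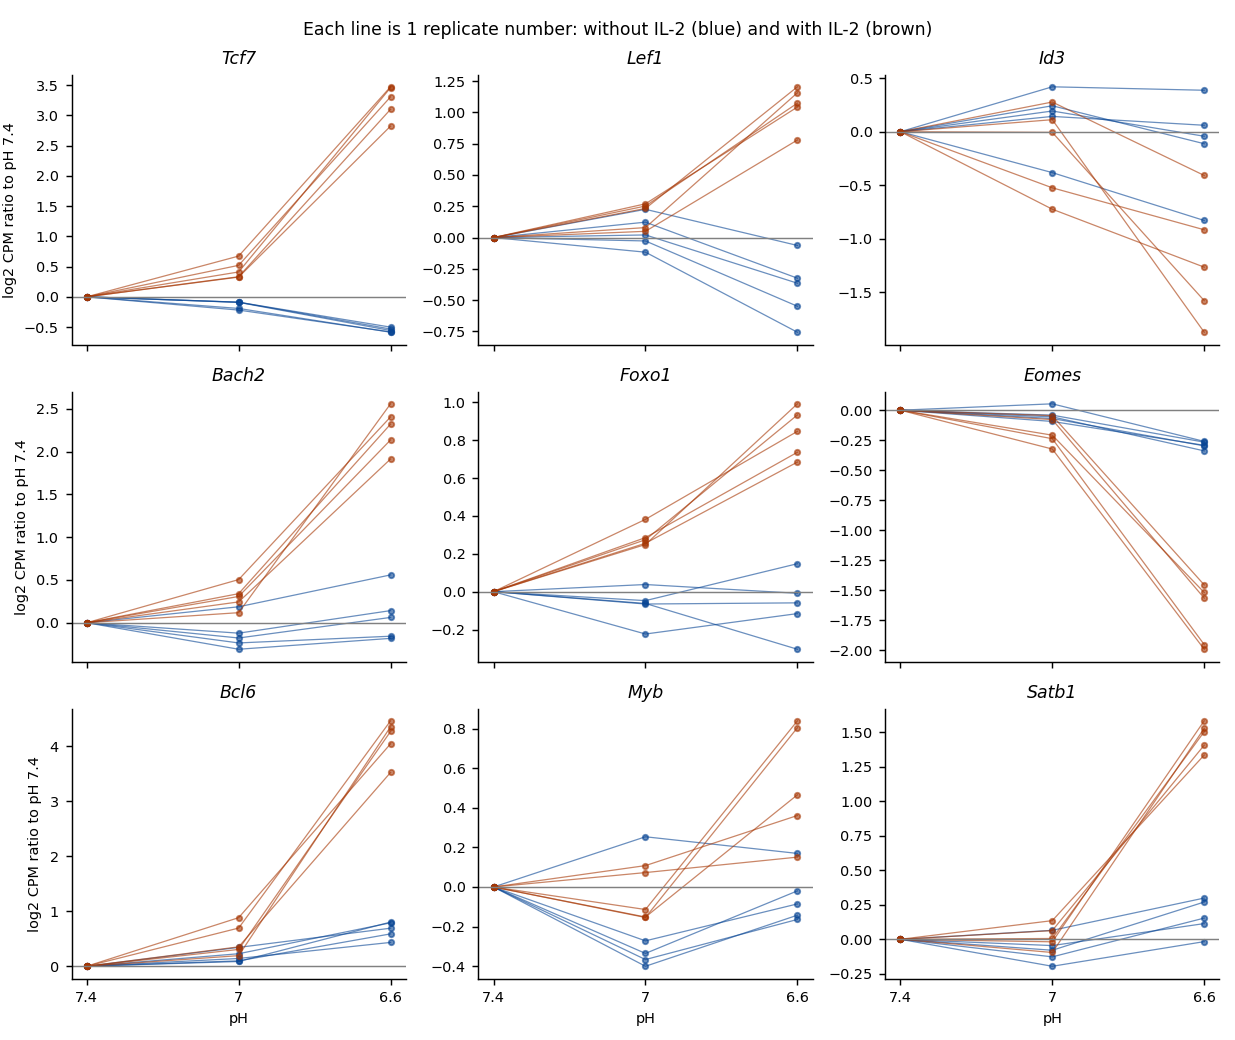
Log2 ratio of the CPM at pH 7 and pH 6.6 to that at pH 7.4 with the same IL-2 condition (y axis, different range per gene) against pH (x axis), with 1 line per replicate number. Brown lines are cultures with IL-2 and blue lines cultures without, and with IL-2 all 5 lines of Tcf7, Lef1, Bach2, Foxo1, Bcl6, Myb and Satb1 end above 0 at pH 6.6 and all 5 lines of Eomes and Id3 end below 0.

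In cultures without IL-2 the same pH step gave other results. At pH 6.6 against pH 7.4, Bcl6 rose and 3 factors fell, with 31.6% of all genes called higher and 35.4% lower. Tcf7 fell by 0.55 ± 0.09 on the log2 scale (adjusted p = 1.97e-06), from a mean of 867 ± 151 to 591 ± 94.5 CPM, Lef1 fell by 0.41 ± 0.07 (adjusted p = 8.02e-06), from 220.0 ± 24.6 to 165 ± 15.8 CPM, and Eomes fell by 0.29 ± 0.09 (adjusted p = 0.00508), from 143 ± 8.06 to 117 ± 4.91 CPM. Tcf7 and Lef1 therefore went down with acid in the absence of IL-2 and up in its presence. For Id3, Bach2, Foxo1, Myb and Satb1 the differences did not pass the threshold, with 95% intervals from -0.77 to 0.33, -0.14 to 0.32, -0.24 to 0.11, -0.26 to 0.17 and -0.05 to 0.38 respectively. Upper quartile scaling and library totals turned the sign of the Bach2 value and lowered the share of higher calls over all genes from 47.2% to 37.3% and 34.7%. With library totals Foxo1 was called lower too, and the value of Eomes was -0.44. At pH 7 without IL-2, edgeR called none of the 9, with 0 of 9 at an unadjusted p under 0.05 and 0 of 9 in DESeq2, while 1.36% of all genes were called higher and 0.318% lower. A fit of only these 2 groups called Bcl6 (log2 0.17, adjusted p = 0.0497).

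IL-2 at pH 6.6 still lowered 6 of the 9 factors and raised Eomes and Id3, and 10.6% of all genes were called lower and 13.2% higher there. The log2 differences ran from -0.88 for Bcl6 to 0.78 for Id3 (adjusted p = 0.0313 for Id3), where at pH 7.4 they had run from -4.38 to 2.10. Without the replicate block 5 of the 9 passed instead of 8, since Id3, Bach2 and Satb1 missed the threshold. Of the calls over all genes, 55.5% were higher, against 65.5% with upper quartile scaling and 74.6% with library totals.

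The cultures at pH 6.6 with IL-2 were also set against those at pH 7.4 that had received no IL-2, which asks how far acid cultures resembled IL-2 withdrawal. Of all genes, 30.4% were called higher and 34.1% lower in the acid cultures with IL-2. Tcf7 (2.22-fold), Lef1 (1.70-fold) and Myb (1.68-fold) stayed below their level in withdrawal (adjusted p = 7.8e-13, 6.87e-11 and 2.56e-07), and Eomes stayed 1.33-fold above it (adjusted p = 0.000203). In each of these 4 the groups did not overlap, though how often this held over all genes was not counted. Bach2 (log2 -0.28 ± 0.11, adjusted p = 0.0307) and Foxo1 (log2 -0.21 ± 0.09, adjusted p = 0.0367) were lower with overlapping groups, and their calls were lost in 6 and 8 of 13 alternatives respectively, DESeq2 and the fit without the replicate block among them. Bcl6, Satb1 and Id3 did not pass, with 95% intervals from -0.47 to 0.05, -0.35 to 0.08 and 0.03 to 1.10. However, Id3 was called higher with RLE normalization, in DESeq2 and without replicate 1 (log2 0.94, adjusted p = 0.000405). Bcl6 was called lower with upper quartile scaling and with library totals (log2 -0.30, adjusted p from 0.0315 to 0.035).

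Against the 0 h cells, 24 h at pH 7.4 without IL-2 raised 7 of the 9 and lowered Eomes and Id3, with 36.9% of all genes called higher and 38.3% lower. Tcf7 went from a mean of 79.0 ± 8.10 to 867 ± 151 CPM (10.8-fold), Bcl6 from 6.86 ± 1.97 to 57.3 ± 3.84 CPM (8.35-fold) and Myb from 31.6 ± 2.503 to 128 ± 15.2 CPM (4.04-fold), all without overlap. Lef1 and Bach2 rose 2.71-fold and 2.57-fold, and Satb1 and Foxo1 rose 1.497-fold and 1.38-fold. The 0 h libraries of Satb1 were uneven, at 205, 342, 402, 223 and 225 CPM, and overlapped those at pH 7.4 without IL-2. Eomes dropped by 1.32 ± 0.09 on the log2 scale, and the value for Id3 was -0.74 ± 0.26 (adjusted p = 0.012), with calls lost without replicate 2 or 3 (adjusted p = 0.123 and 0.0683) and a value of -1.16 without replicate 1.

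After 24 h with IL-2 at pH 7.4, all 9 factors differed from 0 h as well, and 29% of all genes were called higher and 30.9% lower. Among the 9, 6 fell, from 1.30-fold for Lef1 to 2.42-fold for Bcl6, with Tcf7 1.92-fold, Satb1 2.03-fold and Bach2 2.28-fold lower. Id3 (2.04-fold), Eomes (1.71-fold) and Myb (1.65-fold) rose, all with an adjusted p of at most 0.00079. Myb was thus higher than at 0 h both with and without IL-2. None of the 9 overlapped between these groups, and the share of all genes without overlap was not counted. Over all genes 48.4% of the calls were higher, against 33.3% with upper quartile scaling.

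Replicate numbers left a mark on several members. Tcf7 was highest in replicate 3 in 7 of 7 groups and lowest in replicate 4 in 6 of 7, Satb1 was highest in replicate 3 in 5 and lowest in replicate 4 in 5 groups, and Myb was highest in replicate 1 in 6 groups.

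The order of the levels over the 7 groups was shared by most factors. Tcf7, Lef1, Bach2, Foxo1, Bcl6 and Satb1 had their 3 highest means in the 3 groups of 24 h without IL-2, then pH 6.6 with IL-2, then 0 h, and their 2 lowest at pH 7 and pH 7.4 with IL-2. Among the 3 groups without IL-2, neighbouring groups overlapped for Tcf7, Id3, Bach2, Foxo1, Myb and Satb1, whereas pH 6.6 stood apart as the highest group for Bcl6 and the lowest for Lef1 and Eomes. Myb differed from this order in that its lowest group was 0 h. Eomes and Id3 were highest at pH 7.4 with IL-2 and lowest at pH 6.6 without IL-2.

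The genes whose log2 CPM was most like that of a member over the 35 libraries, by Pearson's r among 9006 genes whose mean log2 CPM was 3 or more, were Arl5c (r = 0.993) and Ctdsp2 (r = 0.986) for Tcf7, and Tbc1d4 (r = 0.987) and Slc26a11 (r = 0.985) for Lef1. They were Gpbp1l1 (r = 0.989) and Usp48 (r = 0.988) for Bcl6, Serinc5 (r = 0.986) and Fam160a2 (r = 0.981) for Bach2, and Mtap (r = 0.992) and Idh3a (r = 0.991) for Eomes. For Foxo1 they were Pdcd4 and S1pr1 (r = 0.959 each), for Satb1 Zfp354c (r = 0.957) and Klf13 (r = 0.955), for Myb Hp1bp3 (r = 0.953) and Thada (r = 0.947), and for Id3 Cad and Xrcc6 (r = 0.902 each). Among the members themselves, r was 0.977 between Tcf7 and Lef1, 0.970 between Tcf7 and Bcl6, 0.869 between Eomes and Id3 and -0.980 between Eomes and Bcl6. These values describe 35 libraries in 7 groups and mostly follow the differences between groups.

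Lists of related genes, which were chosen with earlier results of these data known, were counted beside the 9. Of 12 genes known as targets of FOXO1, 11 rose and 1 fell for pH 6.6 against pH 7.4 with IL-2, with a median log2 fold change of 1.78, where 35.4% of all genes were called higher and 40.9% lower. With IL-2 at pH 7.4, 12 of 12 fell, with a median of -2.04, where 41.1% of all genes were called lower. The largest rise at pH 6.6 was that of Irs2, an adaptor of insulin receptor signaling (log2 3.59 ± 0.22, adjusted p = 1.8e-15). The largest fall with IL-2 was that of Il7r, the receptor of the survival cytokine IL-7 (log2 -5.68 ± 0.19, adjusted p = 4.02e-23), and the interaction term was positive for 12 of 12, as for 34.3% of all genes. At pH 6.6 without IL-2, 3 of these 12 rose and 4 fell, shares near those of all genes (31.6% and 35.4%). The activity of the FOXO1 protein was not measured in these RNA data, and its part in these changes was not tested. In shorter acid cultures, the study detected no drop in the phosphorylation of FoxO, a direct target of AKT.

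Of 14 relatives from the same gene families, 8 were expressed enough to be tested. For pH 6.6 against pH 7.4 with IL-2, 3 of the 8 rose and 3 fell, which is near the shares over all genes (35.4% higher and 40.9% lower). Foxo3 (log2 1.37 ± 0.12) and Bach1 (log2 1.03 ± 0.10) rose, and Id2, an E protein inhibitor linked to effector cells, fell (log2 -0.92 ± 0.10). Tbx21, the T-box relative of Eomes that encodes T-bet, fell as well (log2 -0.39 ± 0.13, adjusted p = 0.00625). Mybl2, a relative of Myb that is tied to cell division, fell (log2 -2.48 ± 0.15, adjusted p = 6.3e-16) where Myb rose. Both Id2 and Tbx21 had risen with IL-2 at pH 7.4, by 1.16 ± 0.10 and 1.01 ± 0.13.

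Among 18 partners and cofactors of the 9, 7 rose, 5 fell and 6 did not pass for pH 6.6 against pH 7.4 with IL-2, with a median of 0.07. The largest rise was that of Crebbp, a histone acetyltransferase (log2 1.42 ± 0.10), and the largest fall that of Tcf3, an E protein that Id3 binds (log2 -0.59 ± 0.12). Of 8 effector factors, 1 rose, 5 fell and 2 did not pass in this comparison, with a median of -0.34. Id2 and Tbx21, already counted among the relatives, are also among these 5. Tox, a factor of exhausted T cells, had the largest fall (log2 -1.18 ± 0.15) and Runx3, a factor of CD8+ T cell identity, rose (log2 0.73 ± 0.09). Beside these lists, the median over all genes was -0.07, with 35.4% called higher and 40.9% lower.

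**Figure D4:**
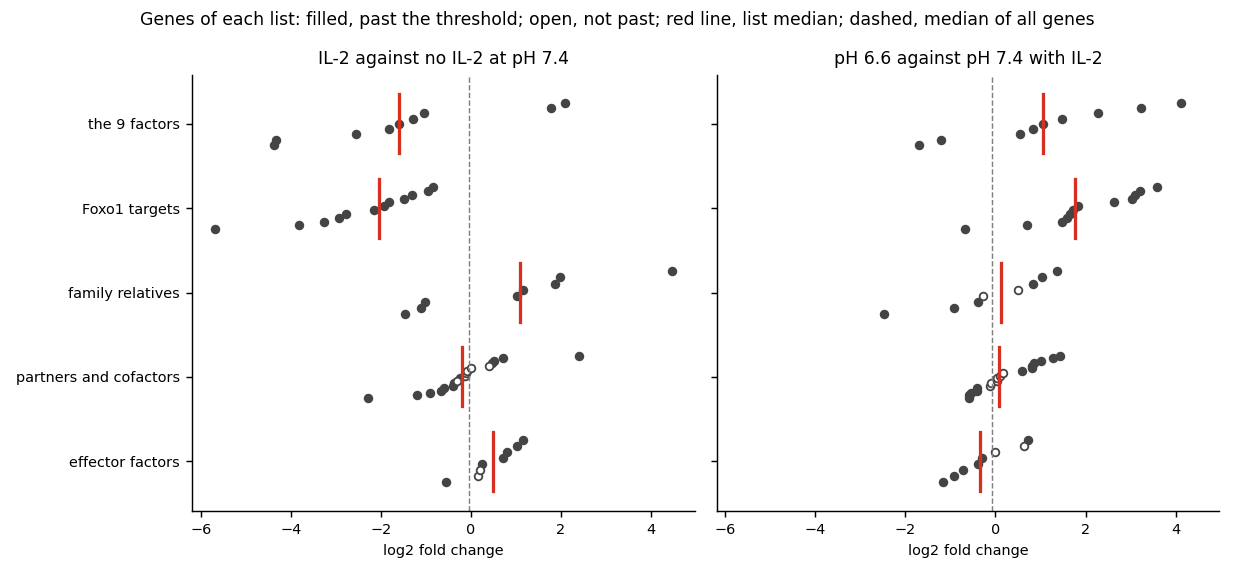
Log2 fold change (x axis) of every tested gene in the 9 factors and 4 related lists (rows) for IL-2 at pH 7.4 (left) and pH 6.6 with IL-2 (right). Filled points passed the threshold, red lines are list medians and the dashed line is the median of all genes. The 12 FOXO1 targets lie below 0 with IL-2 at pH 7.4, and 11 of the 12 lie above 0 at pH 6.6.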

How the data were processed

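Polyadenylated RNA of OT-I CTLs was sequenced by the authors as single reads from stranded libraries on an Illumina HiSeq instrument, in 7 groups of 5 replicates. The submitters' processing notes name cutadapt 1.8, STAR 2.5.2b and HTSeq 0.6.1 and the build GRCm38. The authors deposited a table of raw counts per gene for each library, with no normalization. Alignments that were not unique (median 37.1% of all counts in the tables) and reads outside genes (median 7.42%) named no gene. Both were left out of library sizes and tests. The strand setting of the counting is not given in the sources used here. Symbols matched 48349 of 48709 identifiers.

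The members and lists were chosen with earlier results of these data known, and no list was tested as a set. The 9 members were named, with the 2 genes most like each by Pearson's r over 35 libraries, and from each list the closest family relative or the largest rise and fall, except that the values of the FOXO1 target that fell at pH 6.6 are not reported here. In R 4.3.3, edgeR 4.0.16 (filterByExpr, minimum count 10, TMM, robust quasi-likelihood F test) was fitted to all libraries, with terms for group and replicate number and a Benjamini-Hochberg adjusted p of 0.05 as threshold. Common biological variation was 0.12. The SE is the log2 fold change divided by the square root of F. The model was also run on simulated counts in which few genes changed. That run does not test the scaling where most genes are called, as for pH 6.6 against pH 7.4 with IL-2. Replicate numbers come from the labels, and the block from the study's use of paired tests. Deviations from group means of same-numbered libraries correlated in 95 of 105 pairs (r over 0.1, median 0.273, against -0.0745 for different numbers), and in every pair of each 2-group comparison but that of pH 7.4 without IL-2 with 0 h, where 3 of 5 did. No 2 libraries of a group agreed within sampling noise (70 pairs, lowest chi-square per degree of freedom 6.17). Alternatives were RLE, upper quartile and no scaling, DESeq2 1.42.0, no replicate block, 2 other filters, only the groups compared, and leaving out each replicate number. Promoter windows came from RefSeq (GRCm38.p6).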

Additional observations from a re-analysis of the deposited data

Results flagged for a closer look

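In 5 of 63 sets of 5 libraries, 1 library of a member stood apart from the other 4 by Dixon's criterion, which chance meets in about 1 of 20 sets. For Id3 it was replicate 1 in each of the groups without IL-2, at 16.7 CPM at pH 7.4 (next library 5.99 CPM), 12.8 CPM at pH 7 (next 6.64 CPM) and 9.42 CPM at pH 6.6 (next 6.25 CPM), and these 3 share a replicate number. Foxo1 was at 255 CPM in replicate 3 at pH 7.4 without IL-2 (next 223 CPM), and Bcl6 at 59.8 CPM in replicate 3 at pH 7 without IL-2 (next 65.4 CPM).

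The effect of pH 6.6 differed between cultures with and without IL-2 for each of the 9 members by the interaction term of the edgeR model, with log2 values of 3.78 for Tcf7, 3.46 for Bcl6, 2.18 for Bach2, 1.46 for Lef1, 1.30 for Satb1, 0.91 for Foxo1, 0.58 for Myb, -0.99 for Id3 and -1.40 for Eomes. Its cause was not tested.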

How the results depend on the processing

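Of 1170 values of the members under 13 alternatives, 1098 kept their direction and side of the threshold, among them all values for pH 6.6 against pH 7.4 with IL-2 and for IL-2 at pH 7.4. For pH 7 against pH 7.4 with IL-2, 2 members and 2623 genes passed; 1 and 1660 did without the replicate block, 5 and 4397 with only the groups compared, 5 members with upper quartile scaling or library totals, and 1 to 3 members and 1323 to 2388 genes with a replicate left out, where replicates 2 and 3 gave the lowest counts. For pH 7 without IL-2, 0 members and 232 genes passed; 56 genes did without the block, 926 genes and 1 member with only the groups compared, and 42 (without replicate 2) to 336 genes with a replicate left out. For IL-2 at pH 6.6, 8 members and 3278 genes passed; 5 members did without the block, 5494 genes with only the groups compared, and 5 (without replicate 5) to 8 members and 2120 (without replicate 4) to 2801 genes with a replicate left out. Without the block 4 members, in place of 6, also passed for pH 6.6 with IL-2 against pH 7.4 without IL-2. No other count of members or genes moved by more than 1.5 times, but smaller changes occurred. For the interaction, 7 positive terms and 1 negative term of the members passed with upper quartile scaling or library totals. With a replicate left out, 8 to 9 members passed for the interaction and for pH 7.4 without IL-2 against 0 h. With library totals, 1 member was higher and 4 were lower for pH 6.6 against pH 7.4 without IL-2. The cause was not tested.

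Values that changed sign all missed the threshold. Myb at pH 7 with IL-2 was -0.04, and 0.0022 and 0.0117 with upper quartile scaling and library totals. Satb1 there was between -0.0095 and 0.0462 with a replicate left out. At pH 6.6 without IL-2, Bach2 was -0.0286 and -0.0621 with these scalings and between -0.0318 and 0.15 with a replicate left out, and Id3 was between -0.33 and 0.0666. At pH 7 without IL-2, Id3 was -0.011 without the block and between -0.0397 and 0.25 with a replicate left out, and Lef1 between -0.0019 and 0.0776. Upper quartile scaling and library totals shifted the median log2 value of all genes by up to 0.26. Low counts limit Bcl6 with IL-2 at pH 7.4. Spread between replicates limits Id3, with 518 counts in replicate 1 at pH 7.4 without IL-2 and 111 to 143 in the others. Replicates may share a mouse or culture day, which the labels do not say.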
